A study of Mus musculus with 6 samples.

Results

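Rxra, Crebbp, Med1 and Ppargc1a, genes for a DNA-binding partner of thyroid hormone receptors and for 3 of their coactivators, were followed through maps of thyroid hormone receptor α (TRα) in mouse calf muscle. The 4 genes were chosen by name. A peak was counted for a gene when the annotation text deposited behind that peak held a RefSeq protein accession of the gene. This gave 57 peaks of 4 genes, among 3812 peaks of 395 genes that could be named in this way and 491681 peaks in all. The maps came from ChIP-seq (chromatin immunoprecipitation followed by sequencing), in which DNA bound by the receptor is recovered with an antibody, read, and compared with input chromatin. The tissue was gastrocnemius of mice aged 6, 15 and 21 months, with 2 samples at each age, and the peak names pair each with an input of its own. The samples are called mice here, by their numbered titles. The labels used here give no strain, sex, genotype or treatment, and nothing in them says that mice of the same replicate number were linked. Nothing in the labels describes how the samples of an age were obtained beyond their numbers, so p-values measure the spread between these samples. The lists held 29405 to 106152 peaks, with a median of 4 or 5 fragments at the summit, and the text named a gene for 247 to 848 peaks per list. Only 0.775% of peaks could be named, so peaks of these genes without such text are not counted. The question was whether occupancy of the receptor differed with age.

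TRα is a nuclear receptor that binds thyroid hormone and regulates genes, and it is the main thyroid hormone receptor form of skeletal muscle. It usually binds DNA as a heterodimer with a retinoid X receptor, of which Rxra encodes the α form. The classical response element is a direct repeat of the hexamer AGGTCA with a short spacer. With hormone bound, the receptor recruits coactivators. Ppargc1a encodes PGC-1α, a coactivator of nuclear receptors that drives mitochondrial biogenesis and oxidative metabolism in muscle and whose gene is a known thyroid hormone target. Crebbp encodes CBP, a histone acetyltransferase, and Med1 encodes the Mediator subunit that contacts liganded nuclear receptors and links them to RNA polymerase II.

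Start-site sequences of the genes show which letters of the response element lie there. RefSeq (GRCm38.p6) gave 5 start windows for the 4 genes, and the 250 bases upstream of each start were searched on both strands for AGGTCA and for 2 copies of it in the same direction with any 4 bases between them. AGGTCA was present in 1 of the 5 windows, against 14% of all 32851 windows in the table, and the spaced repeat was in 0 of the 5, against 5 windows in the whole table. The window with matches was that of a second Rxra start (chr2:27709042-27709291, GRCm38.p6, plus strand), with matches whose leftmost base is at -87 (minus strand) and at -48 (plus strand) from the start. It is shown with these matches in capitals beside the Ppargc1a window (chr5:51567726-51567975, GRCm38.p6, minus strand), which had none.
Rxra, second start: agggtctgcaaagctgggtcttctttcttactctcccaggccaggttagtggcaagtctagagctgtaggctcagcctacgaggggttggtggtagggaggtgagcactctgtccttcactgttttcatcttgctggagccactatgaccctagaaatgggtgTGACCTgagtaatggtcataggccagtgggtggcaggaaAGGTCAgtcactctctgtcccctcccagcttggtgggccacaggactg
Ppargc1a: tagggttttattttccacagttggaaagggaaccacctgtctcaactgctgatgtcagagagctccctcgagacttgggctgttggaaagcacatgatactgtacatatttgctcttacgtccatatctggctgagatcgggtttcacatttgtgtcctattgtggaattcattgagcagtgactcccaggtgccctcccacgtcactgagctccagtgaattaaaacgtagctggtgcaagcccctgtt
The peaks lie on another build (GRCm39), so they could not be placed on these windows, and a match is a run of letters and not a site. The DNA under the peaks and the gene part at each peak were not analysed here.

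Rxra had TRα peaks in every mouse, few in each. The mice of 6 months had 2 and 2, those of 15 months 2 and 1, and those of 21 months 3 and 4 (replicate 1 before replicate 2 throughout). Ppargc1a was the other gene of the 4 with a peak in every mouse, so that 2 of 4 had this property, against a background of 18.5% of named genes. That background is not matched for number of peaks. The median named gene had 6 peaks and 52 genes had only 1, against 14 for Rxra and 35 for Ppargc1a. For lists of unequal length the counts are better read per 10000 peaks of the list. Rxra then had 0.253 and 0.188 in the youngest mice, 0.201 and 0.340 in those of 15 months, and 0.327 and 0.465 in those of 21 months. Both mice at 21 months lay above both at 6 months, a pattern that 9.37% of the named genes showed. Among named genes with at least 6 peaks, as Rxra has, 12.1% showed it. The ages 21 and 15 months overlapped. The means were 0.221 ± 0.0457, 0.271 ± 0.0982 and 0.396 ± 0.0975 per 10000 at 6, 15 and 21 months (SD, n = 2 each).

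Rxra peaks showed no age trend that passed the test. Pearson's r of the rate with age was 0.73 (two-sided exact permutation p = 0.122, adjusted p = 1 over the 395 named genes). By rank, Spearman's rho reached 0.72 (p = 0.178 by exact permutation, adjusted p = 1), and r was 0.67 without the mice of 6 months, which are farthest from the median age. No named gene passed after adjustment (0%), and the smallest adjusted p was 1. Over 90 assignments of ages to mice p takes few values, and its smallest over the genes was 0.0111. Adjusted over 395 genes, a p of that size passes only if many genes reach it together. The adjusted test could therefore hardly pass any single gene, and its 0% does not show that trends are absent. Before adjustment, 1 gene was higher with age at an exact permutation p under 0.05 (0.253%) and 8 were lower (2.03%), and none of the 4 genes was among them. A rate of so few peaks is imprecise. The exact (Clopper-Pearson) 95% interval for Rxra in replicate 2 at 21 months ran from 0.127 to 1.19 per 10000, which holds the rates of all the other mice. These intervals cover counting error only.

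**Figure D1:**
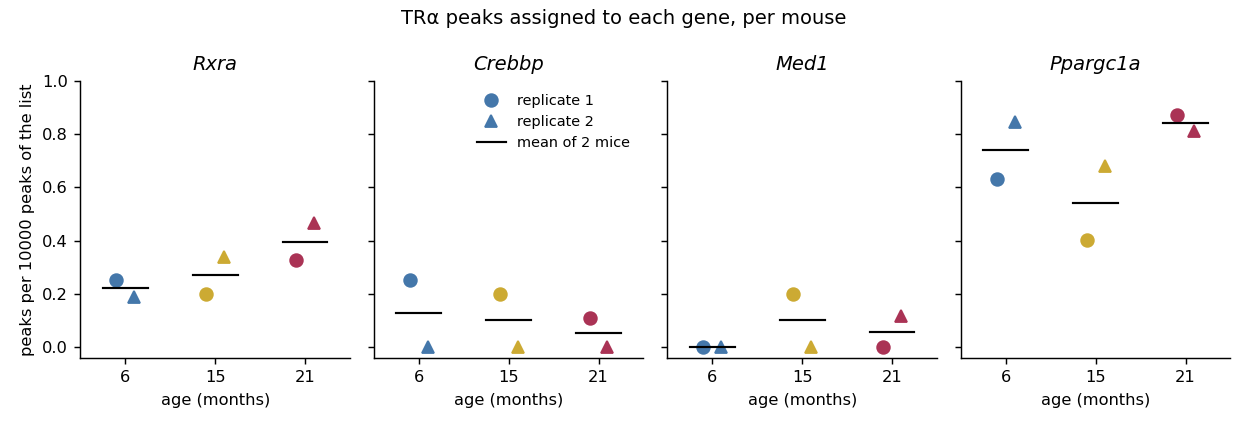
Peaks assigned to each gene per 10000 peaks of the list (vertical axis) against age in months (horizontal axis); circles are replicate 1, triangles replicate 2 and bars the mean of 2 mice. Rxra lies between 0.188 and 0.465 and Ppargc1a between 0.402 and 0.873, while Crebbp and Med1 are at 0 in several mice.

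Peaks of Rxra were spread thinly over chromosome 2, and no position recurred. The 14 peaks ran from 27498457 to 27665318 (GRCm39, counted from 1), a span of 166.9 kb in which every peak of every mouse carried the name Rxra. All 130 named genes with at least 10 peaks likewise had only peaks of their own name in their spans. In the names table Rxra lies between the protein-coding genes Wdr5 and Col5a1. The span held 83.9 peaks per Mb over the 6 mice, against 196 per Mb on chromosome 2, a ratio of 0.427. Per mouse it was 0.394 and 0.279 for those of 6 months, 0.301 and 0.460 for those of 15 months, and 0.510 and 0.690 for those of 21 months, so it was below 1 in all 6 mice. Among the 130 named genes with at least 10 peaks, Rxra had the lowest ratio, where the median was 1.19 and the highest 3.26. Because the span ends at the gene's own peaks, this is a description with no test.

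Within that span the peaks formed a left and a right group. A gap of 69.0 kb without a peak in any mouse separated 9 peaks on the left from 5 on the right. On the left, the highest fold over input was 3.67, in replicate 2 at 6 months (27501344 to 27501646), with 5 fragments at its summit. Close to it in strength was a peak with a fold of 3.55 and 7 fragments in replicate 1 at 6 months (27562486 to 27562748). The nearest approach of peaks from different mice was at the right end. There, summits in replicate 1 at 6 months (27662814 to 27663045) and replicate 1 at 21 months (27663479 to 27663746) were 706 bp apart, without overlap, with folds of 2.89 and 3.19. A peak of replicate 1 at 15 months (27665089 to 27665318, fold 2.91) followed 1719 bp further on. Thus each age had a peak in its replicate 1 list within 2425 bp, and none of the replicate 2 lists had one there. The median distance from a Rxra summit to the nearest summit of another mouse was 4148 bp, against 1981 bp over all peaks.

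**Figure D2:**
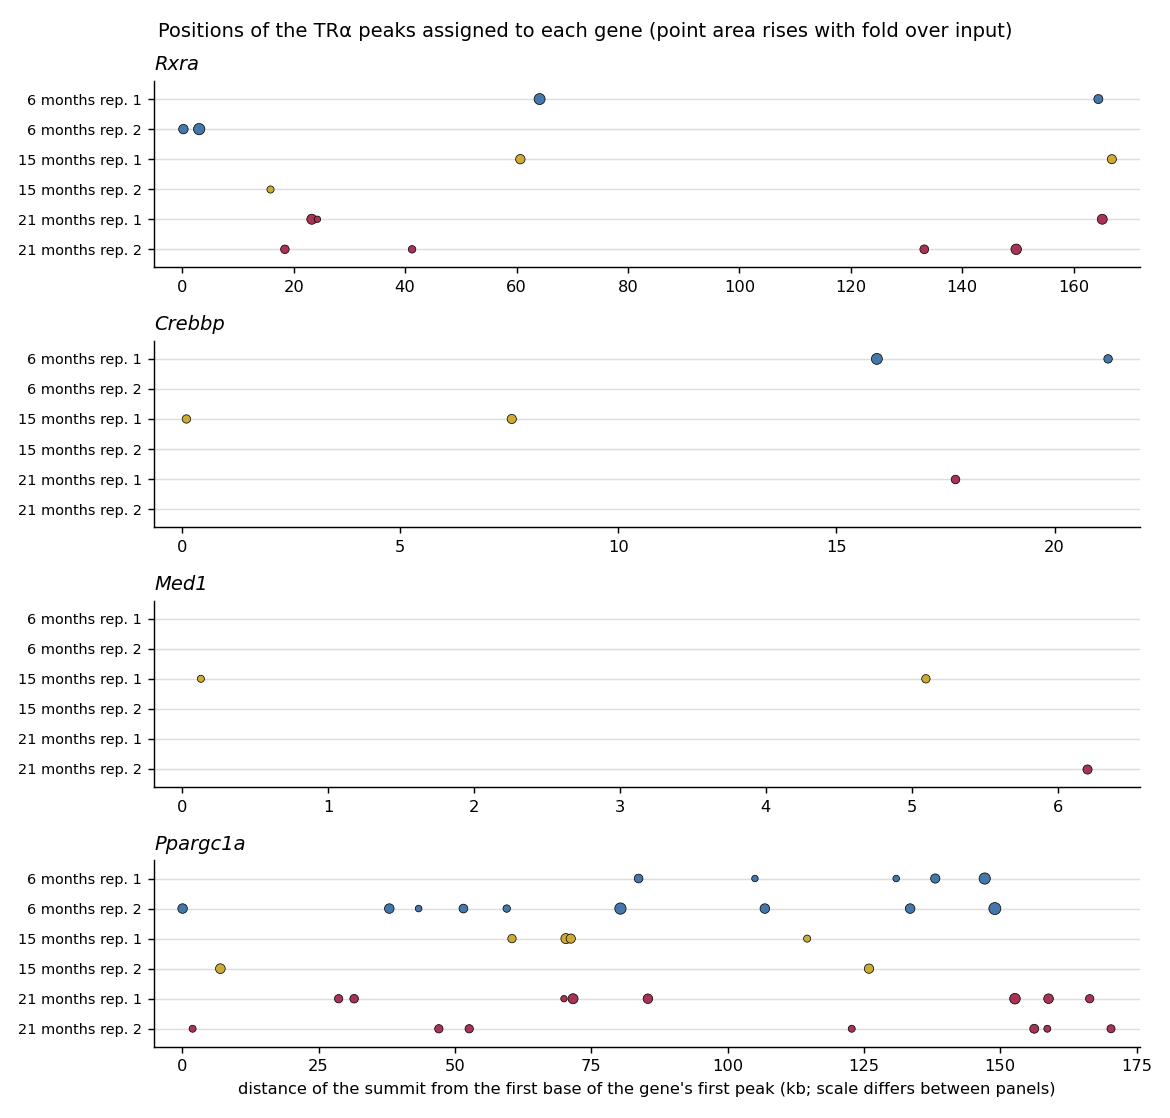
Summit positions of every assigned peak as the distance in kb from the first base of the gene's first peak (horizontal axis, a scale of its own per panel), 1 row per mouse from 6 to 21 months; point area rises with fold over input. Rxra has a gap of 69.0 kb, and its 5 rightmost peaks include those of the 3 replicate 1 lists, while the 35 Ppargc1a peaks cover their span with no gap above 21.7 kb.

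Ppargc1a carried most of the peaks of the 4 genes, 35 of 57. The mice of 6 months had 5 and 9 peaks, those of 15 months 4 and 2, and those of 21 months 8 and 7. Both mice at 15 months thus had fewer peaks than each of the other 4 mice, a pattern of 2.28% of the named genes. That share counts genes with too few peaks to show it. Divided by list length the difference between 15 months and the other ages narrowed. Per 10000 peaks, the mice of 6 months had 0.633 and 0.848, those of 15 months 0.402 and 0.680, and those of 21 months 0.873 and 0.814. Replicate 2 at 15 months, whose list held 29405 peaks against 79040 to 106152 in the others, then lay above replicate 1 at 6 months. Both mice at 21 months remained above both at 15 months, as for 12.7% of the named genes, and overlapped with those at 6 months. Of the named genes with at least 6 peaks, 17.1% had 21 months above 15 months in this way.

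No trend of Ppargc1a peaks with age was detected. The means were 0.740 ± 0.152, 0.541 ± 0.196 and 0.843 ± 0.0415 per 10000 at 6, 15 and 21 months (SD, n = 2 each). Pearson's r with age was 0.17 (two-sided exact permutation p = 0.778, adjusted p = 1) and rho 0.36 (p = 0.533 by exact permutation, adjusted p = 1). Without the mice of 6 months r was 0.83, over 4 mice of 2 ages. The sign of r was negative in 4 alternatives, among them r = -0.19 with peaks of a fold of at least 3 and r = -0.073 without replicate 1 at 21 months. Between 2 ages no exact permutation test was run, since 2 mice against 2 give such a test a two-sided p of no less than 1 in 3. None of the 4 genes had lower rates in both mice at 21 months than in both at 15 months (10.1% of named genes) or both at 6 months (10.6%). None had both mice at 15 months above (12.4%) or below (10.6%) both at 6 months either.

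The Ppargc1a peaks lay on chromosome 5 between 51699173 and 51869647, a span of 170.5 kb. As in the spans of the other named genes with at least 10 peaks, every one of the 35 peaks in it was named for the gene. Ppargc1a lies between Adgra3 and Dhx15 in the names table. The density of the 35 peaks was 205 per Mb over the 6 mice, against 200 per Mb on chromosome 5, a ratio of 1.03. The mice of 6 months had ratios of 0.903 and 1.25, those of 15 months 0.569 and 0.949, and those of 21 months 1.29 and 1.17. Replicate 1 at 15 months had the lowest, and both mice at 21 months were above 1. Among named genes Ppargc1a ranked 13 by number of peaks and 14 by span, and Rxra ranked 81 by number and 15 by span.

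**Figure D3:**
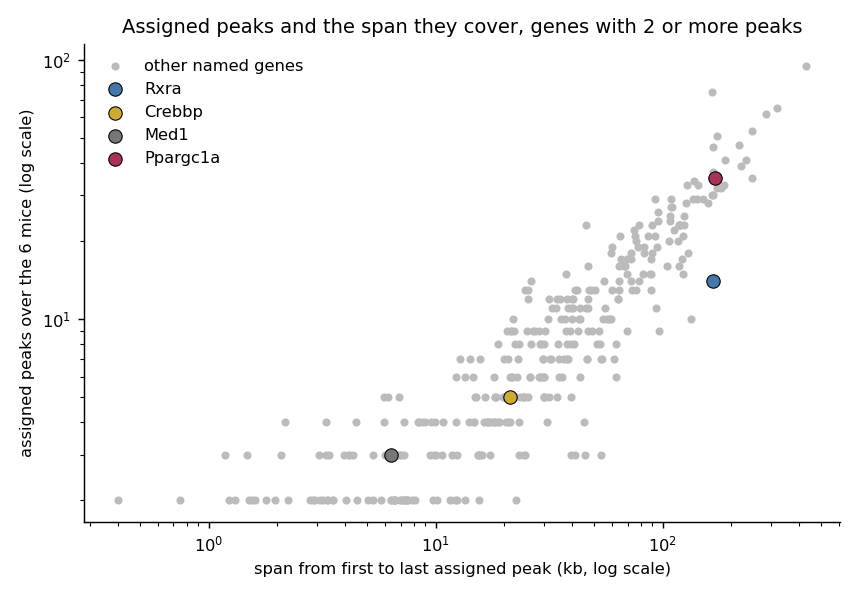
Peaks assigned to each named gene over the 6 mice (vertical, log scale) against the span in kb from its first to its last peak (horizontal, log scale), for genes with at least 2 peaks; grey points are other genes. Ppargc1a (35 peaks over 170.5 kb) lies within the band of genes, and Rxra (14 peaks over 166.9 kb) lies at its lower edge.

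A single Ppargc1a position was found in both mice of an age. Peaks of replicate 1 (51857843 to 51858156) and replicate 2 (51857617 to 51857865) at 21 months overlapped by 23 bp, with summits 229 bp apart. Their folds were 3.09 and 2.33, on 5 and 3 fragments, and their q values were 0.544 and 1. This was the only position of the 4 genes with peaks in more than 1 mouse. Ppargc1a thus belonged to the 28.4% of named genes with such a position, and the other 3 genes did not. Of the 73 genes with a peak in every mouse, which include Rxra, 60.3% had one. Among the 12 named genes with 30 to 40 peaks, 11 had at least 1 such position. Among the 72 genes with 10 to 18 peaks, a range that holds Rxra, 31 had one.

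Other Ppargc1a peaks of different mice came close without meeting. Between 51769118 and 51771006, replicate 1 at 15 months and replicate 1 at 21 months had 2 peaks each, those of 21 months on the outside. Each summit of 15 months and the nearest of 21 months were 363 bp and 420 bp apart, and the folds were 2.21 and 3.20 at 21 months, against 3.24 and 2.95 at 15 months. With summits within 500 bp counted as shared, there were 3 shared pairs for the 4 genes, all of them of Ppargc1a. No mouse of 6 months took part in these pairs. At 6 months the closest pair was at 51803992 to 51804259 and 51805880 to 51806186, with summits 1817 bp apart. The median distance from a Ppargc1a summit to the nearest summit of another mouse was 1854 bp, close to the 1981 bp of all peaks.

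The highest folds of Ppargc1a peaks were found at 6 months, as a description. These are maxima over unequal numbers of peaks, 5 and 9 at 6 months, 4 and 2 at 15, and 8 and 7 at 21. The lists were not scaled to each other, and a difference in strength with age was not tested. The highest fold of the 57 peaks was 3.94, at 51847864 to 51848274 in replicate 2 at 6 months, on 6 fragments, with q = 0.103. In replicate 1 at 6 months the highest was 3.64 on 7 fragments at 51846136 to 51846517, and the summits of these top peaks of the 2 young mice were 1854 bp apart. The mice of 15 months reached folds of 3.24 and 3.11, and those of 21 months 3.42 and 2.87. By the highest and the median fold, replicate 2 at 21 months was the lowest mouse. All 7 of its Ppargc1a peaks, and both of those of replicate 2 at 15 months, had folds below the median of their list. Ranked within their lists, the Ppargc1a peaks had a median percentile of fold of 27.1 in that mouse and of 59.4 in replicate 1 at 21 months. The mice of 6 months had medians of 58.9 and 70.6, and those of 15 months 50.2 and 44.2. The mice of 21 months therefore lay on both sides of those of 15 months.

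Crebbp had peaks in replicate 1 of every age and in replicate 2 of none. Replicate 1 had 2 peaks at 6 months, 2 at 15 months and 1 at 21 months. No age therefore had peaks in both mice, a property of 43.3%, 32.9% and 43% of named genes at 6, 15 and 21 months, which Rxra and Ppargc1a had at each age. Med1, with peaks in replicate 1 at 15 months and replicate 2 at 21 months, had no age with peaks in both mice either. None of the 4 genes was therefore restricted to both mice of a single age, as 0.759%, 0.506% and 1.27% of named genes were at 6, 15 and 21 months. Nor did any of them have both mice of an age with peaks beside an age with none. That held for 2.28% of named genes at 21 months but not 6, for 4.56% at 21 but not 15 and for 2.03% at 15 but not 6. The opposite held for 3.04%, 2.03% and 3.29%. The 5 Crebbp peaks lay on chromosome 16 from 4015273 to 4036589, within 21.3 kb, and the gene stands between Trap1 and Adcy9 in the names table. The strongest was at 4031050 to 4031304 in replicate 1 at 6 months, with a fold of 3.55 on 7 fragments, and the peak of 21 months (4032970 to 4033203, fold 2.76) had its summit 1795 bp away. Those of 15 months were at 4015273 to 4016004 and 4022676 to 4022983, with folds of 2.70 and 2.95. Crebbp had a rate of 0.127 ± 0.179, 0.101 ± 0.142 and 0.0545 ± 0.0771 per 10000 at 6, 15 and 21 months (SD, n = 2 each), with an SD above the mean at every age. Its r with age was -0.28 (two-sided exact permutation p = 0.6, adjusted p = 1), its rho was -0.25 (p = 0.667 by exact permutation, adjusted p = 1), and r among the 4 older mice was -0.27. Without replicate 1 at 6 months r was 0.21.

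Med1 had the fewest peaks, 3 in all. Replicate 1 at 15 months had 2, replicate 2 at 21 months had 1, and the other mice, both of 6 months included, had 0. They lay on chromosome 11 between 98081285 and 98087657, within 6.37 kb, and Med1 stands between Fbxl20 and Cdk12 in the names table. The peak of 21 months (98087435 to 98087657) had a fold of 2.92. The nearer peak of 15 months (98086378 to 98086630) had a fold of 2.70, and their summits were 1106 bp apart. The remaining peak (98081285 to 98081565) had a fold of 2.36 on 3 fragments and a q of 1. Pearson's r with age was 0.35 (two-sided exact permutation p = 0.533, adjusted p = 1), rho was 0.35 (p = 0.667 by exact permutation, adjusted p = 1), and r among the 4 older mice was -0.25. At such depth the absence of a peak does not show absence of binding.

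In strength, the peaks of the 4 genes were spread over the range of their lists, with percentiles of fold from 2.14 to 96.2. None of the 57 had a q of at most 0.05, where 2.21% of all peaks and 1.99% of gene-named peaks did. By gene, 0 of 4 had such a peak, against 13.7% of named genes. Pileup at the summit was 3 to 7 fragments with a median of 4, the same as over all peaks, and 61.4% of the 57 had at most 4 fragments, against 57.2% of all peaks. Their median fold was 2.87, against 2.82 over all peaks, and their median percentile of fold within the list was 49.9. By mouse this median was 61.1 and 70.6 for those of 6 months, 43.7 and 41.5 for those of 15 months, and 59.4 and 32.2 for those of 21 months. By gene the median fold was 2.96 for Rxra, 2.76 for Crebbp, 2.70 for Med1 and 2.82 for Ppargc1a. Only 4 of the 57 lay above the 90th percentile of their list, 1 of Rxra and 3 of Ppargc1a. The local background from input at the 57 peaks was at most 1.82 times the lowest level of the list. It stood at that lowest level for 35.1% of the 57 and 47.7% of all peaks. A level so widely shared need not reflect the input at the peak itself.

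**Figure D4:**
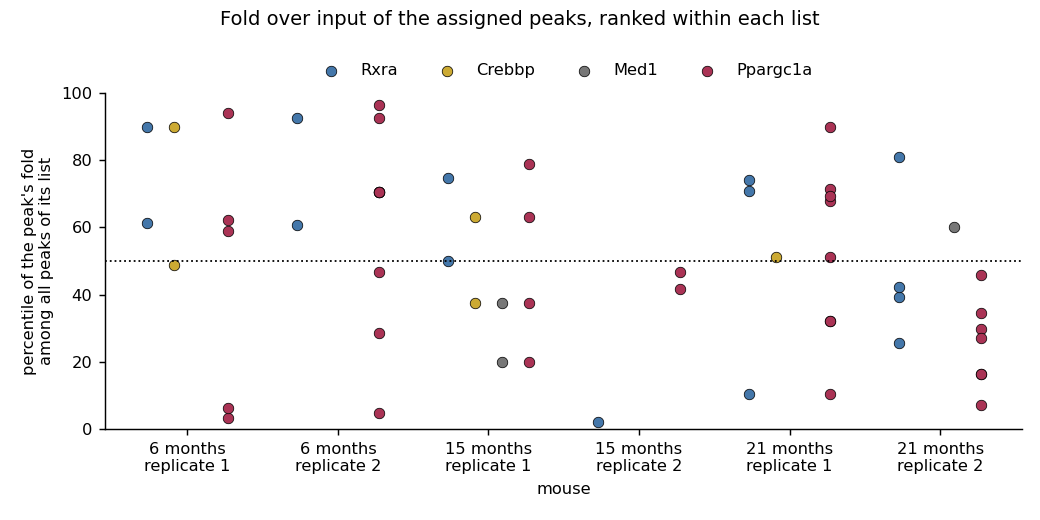
Percentile of the fold over input of each assigned peak among all peaks of its list (vertical axis), for each mouse (horizontal axis) and gene (colours); the dotted line is the list median. Points spread from 2.14 to 96.2 around the median, and all 7 Ppargc1a points of replicate 2 at 21 months are below it.

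Overlap with other mice was less frequent for these peaks than for peaks in general, as a description. Of the 57, 2 (3.51%) were overlapped by a peak of another mouse, against 11.1% of gene-named peaks and 12.8% of all peaks. A summit of another mouse within 1000 bp was present for 17.5% of the 57, against 31.4% of all peaks. Peaks of a gene share their locus, so these shares carry no test. In replicate 1 at 6 months, 7 of the 9 peaks of the 4 genes had at least 5 fragments, against 3 of 11 in replicate 2. The mice of 15 months had 2 of 10 and 2 of 3, and those of 21 months 6 of 12 and 2 of 12. Over all peaks of the same lists this share was 83.9% and 25.2% for the mice of 6 months, 30.4% and 76.3% for those of 15 months, and 40.3% and 32.1% for those of 21 months, so the 4 genes differed among mice largely as the lists did. The lowest local background of replicate 1 at 6 months, as recovered from pileup and fold, was 1.2 fragments, against 0.633 to 0.824 in the other lists. In that list 43.4% of peaks stood at this level, so it need not measure the input at any 1 peak. The part of this background in the pileups was not tested.

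Around these genes, a wider set of 78 genes of thyroid hormone action and PGC-1α function was followed, of which the annotation text named 19. The text named a gene for only 0.775% of peaks. Genes that it did not name may therefore hold peaks, and the counts of named genes do not show absence. Of the receptors and partners, 1 of 5 was named, and of the coactivators 3 of 13, in both cases only the genes above. None of the 9 genes of hormone transport and deiodination was named, and of 18 muscle target genes only Hk2, a hexokinase, was, with 1 peak. Of 9 corepressor genes 2 were named. Hdac2, a histone deacetylase, had 30 peaks over all 6 mice and the single peak with q of at most 0.05 among the 19 genes (q = 0.0203). Hdac1, also a histone deacetylase, had 3 peaks in 3 mice.

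Among 24 genes for partners of PGC-1α and kinases or deacetylases upstream of it, 12 were named and 2 had peaks in every mouse, a share near the 18.5% of all named genes. Mef2c, a transcription factor of muscle genes, had 53 peaks in 6 mice, and Gsk3b, a kinase of insulin and Wnt signalling, had 15 in 6 mice. Pparg and Ppard, nuclear receptors of the PPAR family, had 26 and 9 peaks, each in 5 mice. Foxo3, a transcription factor of muscle atrophy, had 23 peaks in 5 mice. The catalytic AMP-activated kinase genes Prkaa1 and Prkaa2 had 5 peaks in 4 mice and 9 in 5. Sirt1, a deacetylase, Mapk14, the p38α kinase, Akt1 and Akt2 had 3 peaks each, and Mef2a had 2. At 6, 15 and 21 months, 9, 8 and 10 of all 19 genes were found in both mice, beside 43.3%, 32.9% and 43% of all named genes. After adjustment 0 passed the age test by exact permutation, which could hardly pass any single gene.

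The named genes whose rates over the 6 mice were most like those of Ppargc1a, among the 72 others with peaks in every mouse, were Bmpr1b (r = 0.73, 41 peaks), Hdac4 (r = 0.72, 17 peaks) and Hdac2 (r = 0.70, 30 peaks). For Rxra they were Ccr1 (r = 0.85, 12 peaks), Tlr2 (r = 0.69, 22 peaks) and Traf6 (r = 0.69, 24 peaks). Foxa2, with 3 peaks, was the only other gene with peaks in exactly the 3 mice of Crebbp (r = 0.93). For Med1, genes with peaks in exactly the same mice included Smarca4, which had the same count in every mouse (r = 1), and Dvl2, which had 2 peaks (r = 0.92). For Crebbp and Med1 only genes with peaks in exactly the same mice were compared, so a high r was largely built in. All these values of r describe likeness over 6 lists that share their lengths, and carry no test.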

How the data were processed

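TRα ChIP-seq was done on gastrocnemius of 6 mice, 2 at each of 3 ages. The submitters' processing notes name MACS2 2.1.1.20160309, HOMER 3, SAMtools 1.3.1 and Trimmomatic 0.36. For the aligner and the caller's options, nothing is given in the sources used here. Both GRCm39 and mm10 are named there, and scaffold names in the lists belong to GRCm39. Peaks were called per mouse against its own input, per the peak names. The deposited pileup is a signal, the fragments stacked at the summit. The fold deposited by the authors is a ratio, (pileup + 1) over (local input background + 1), the form under which the deposited p follows from a Poisson count. The deposited −log10 p and −log10 q belong to single peaks, and the lowest −log10 p was 2.001. Read totals were not used here. Folds and pileups of different lists are set side by side as deposited, with no scaling between lists and no test.

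A RefSeq gene table (assembly GRCm38.p6) turned accessions into symbols, and no coordinates of that assembly were used to place peaks. Text followed 3987 peaks and named a gene for 3812. Positions were shared if peaks overlapped by at least 1 bp. Peaks per 10000 peaks were tested against age over the 90 assignments of ages to mice, with Benjamini-Hochberg adjustment over 395 genes. Python 3.11.15, NumPy 2.4.6, pandas 2.3.3 and SciPy 1.17.1 were used. Local background was recovered as (pileup + 1) / fold − 1. Same-numbered mice deviated from their age means with r of 0.0016, -0.12 and 0.034 between ages, so the numbers were not taken to pair them. Named were the 4 genes, named members of the pathway lists and up to 3 genes most like each of the 4. One such gene is not reported here. Genes and lists were chosen with earlier results of these data known.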

Additional observations from a re-analysis of the deposited data

How the results depend on the processing

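No age trend of the 4 genes passed adjustment under any alternative that gave a value, and 0 named genes passed in each. With so few assignments of ages to mice this outcome was close to fixed, so it does not show robustness. With a replicate block r was 0.79 for Rxra, 0.19 for Ppargc1a, -0.68 for Crebbp and 0.35 for Med1, and this changed no call. The labels do not say whether the replicate numbers pair the mice, and the low correlations between same-numbered mice cannot exclude it. For Rxra the sign was the same in all 14 alternatives, from 0.20 to 0.85. These include Spearman's rho and the restriction to genes with at least 6 peaks, which leaves r itself as it was. The lowest r for Rxra, 0.20 and 0.21, came with a fold of at least 3 and a pileup of at least 5, against 0.73 with all peaks. All alternatives draw on the same peaks, so a shared sign does not show robustness. For Ppargc1a r turned to -0.19 with a fold of at least 3, -0.18 with equal list lengths, -0.011 for undivided counts and -0.073 without replicate 1 at 21 months. Leaving out each mouse gave -0.073 to 0.53 for Ppargc1a, -0.69 to 0.21 for Crebbp, 0.21 to 0.61 for Med1 and 0.62 to 0.85 for Rxra. The cause of these turns was not tested. Crebbp rests on the replicate 1 lists, and Med1 has 1 peak left without replicate 1 at 15 months.

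The 57 peaks became 0 with q of at most 0.05, 21 with a fold of at least 3, 22 with a pileup of at least 5 and 19 with equal list lengths, so trends could not be computed at that q. Under these 4 settings, in that order, the 73 named genes with a peak in every mouse became 0, 15, 25 and 22, and the 2 among the 4 genes became 0, 0, 1 and 1. Leaving out a mouse left 45 to 54 peaks and 76 to 109 named genes. The single shared position was lost, giving 0, under each of the 4 settings, with an overlap of at least 50% of the shorter peak, and without either mouse of 21 months (range 0 to 1 over the mice left out). Summits within 500 bp gave 3. Named genes with p under 0.05 before adjustment numbered 9, and 2 to 15 when a mouse was left out. Equal lengths kept the peaks of lowest p, with ties broken at random. At 3 to 7 fragments a peak, depth limits every count given here.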
